A study of Mus musculus with 9 samples.

Results

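Control siRNA-treated primary microglia formed 1 of the 3 groups of this RNA-seq series, and the values below describe the transcriptome of these cells alone. Members were chosen by the treatment given in the sample descriptions, which left the libraries control 1, control 2, and control 3, 3 of 9 samples. The other 6 samples received Chd8 or Tsc2 siRNA and enter no value here. The study asked how loss of these autism-related genes alters microglia, so the control cells are its reference state.

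The cells came from C57BL/6J mice. Mixed glia of embryonic brain were cultured, microglia were shaken off the layer, and a negative control siRNA was delivered with a lipid reagent. The results section of the study states that the sequenced microglia had been stimulated with lipopolysaccharide (LPS) for 3 days. The methods describe a stimulation of siRNA-treated microglia that lasted hours, list the experiments done without LPS, the RNA-seq not among them, and place the RNA isolation after 3 days of siRNA. The sample descriptions name no LPS. The study's text thus places these cells under LPS, its duration differs between sections, and "control" refers to the siRNA only. The preparation is given as an Illumina total RNA kit in the methods and as a stranded SMARTer kit in the sample descriptions. The methods describe cultures from distinct mouse brains. The sample descriptions name no animals, and the spread between libraries may therefore be partly technical. The ± values are SD over the 3 libraries (n = 3), and with 1 group no difference was tested.

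Microglia are the resident macrophages of the brain. In the healthy brain they carry a homeostatic program with purinergic receptors such as P2ry12, and they depend on signalling through Csf1r. LPS, a component of the outer membrane of bacteria, binds Cd14 and Tlr4, and the signal runs through Myd88 to NF-κB, which turns on cytokine genes, and through Ticam1 to interferon β, which turns on interferon-stimulated genes. In culture, microglia are known to lose much of the homeostatic program.

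Estimated counts of transcripts were rounded and summed to genes. Counts that could be assigned to a gene numbered 26020844, 16869539, and 22122922 in control libraries 1 to 3. Levels of 1 gene across libraries are given in CPM, counts per 1000000 gene-matched counts of the library. Levels of different genes are ranked and compared per length, that is after each transcript's count was divided by its annotated length and the sums were scaled to a total of 1000000 over 21793 protein-coding genes of the nuclear genome. Counts of genes past 1 or 100 CPM, and sums over lists, do not correct for length. The smallest count taken as detected, 3 counts, corresponds to 0.115 to 0.178 CPM, and this floor covers counting error only. Of 54119 genes, 16098 had at least 3 counts in every library and 10940 reached 1 CPM in every library. Among the latter were 9667 protein-coding genes, 44.4% of those listed. The 3 libraries differed from each other beyond counting error, so none was a copy of another.

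The gene with the most counts was not protein-coding. Gm24245, annotated as a microRNA gene at chr4:139338304-139338360 on the plus strand, reached 85042, 91094, and 78977 CPM in control libraries 1 to 3. Its sequence is printed because this single entry of 57 bases took 8.50% ± 0.606 of all gene-matched counts. GENCODE release 21 (GRCm38) lists further copies, Gm24270 at chr9:56223715-56223771 (minus strand) and Gm23935 at chr16:11144125-11144181 (plus strand), with the same 57 bases, and these were not analysed here. Gm24187 at chr13:9834469-9834525 (minus strand) differs from Gm24245 by G11A, counted from 1 at the 5′ end, and this base is in capitals in both.
Gm24245: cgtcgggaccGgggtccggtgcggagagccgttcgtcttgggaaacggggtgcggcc
Gm24187: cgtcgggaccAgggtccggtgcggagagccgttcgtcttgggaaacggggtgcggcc
Gm24187 reached only 45.5, 45.2, and 42.2 CPM. Gm24245 and its identical copies cannot be told apart by reads, so the counts belong to the sequence and not to 1 locus.

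Mir6236, another microRNA entry, was also among the 30 genes with the most counts, at 3078, 3453, and 2164 CPM. Libraries made from sheared total RNA are not a measure of mature microRNAs, so these counts describe fragments that match the annotated transcripts. In all 3 libraries both entries were high, with a ratio of highest to lowest library of 1.15 for Gm24245 and 1.60 for Mir6236.

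By annotated kind of gene, protein-coding genes of the nuclear genome took 77.2% ± 0.993 of the counts. Small RNA genes, the microRNA entries above among them, took 11.0% ± 1.01, mitochondrially encoded genes 6.33% ± 0.720, long non-coding genes 4.65% ± 0.687, and pseudogenes 0.762% ± 0.0406. The mitochondrial share was almost all ribosomal RNA: mt-Rnr1 and mt-Rnr2 together took 5.74% of counts, and the 13 mitochondrial protein-coding genes took 0.592%. The 10 genes with the most counts held 22.8% ± 0.732 of the counts, the top 100 held 42.7% ± 1.37, and the top 1000 held 74.5% ± 1.02. Within protein-coding genes, 90.5% of counts fell on transcripts annotated as coding, 4.96% on retained introns, and 2.34% on transcripts annotated for nonsense-mediated decay.

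**Figure D1:**
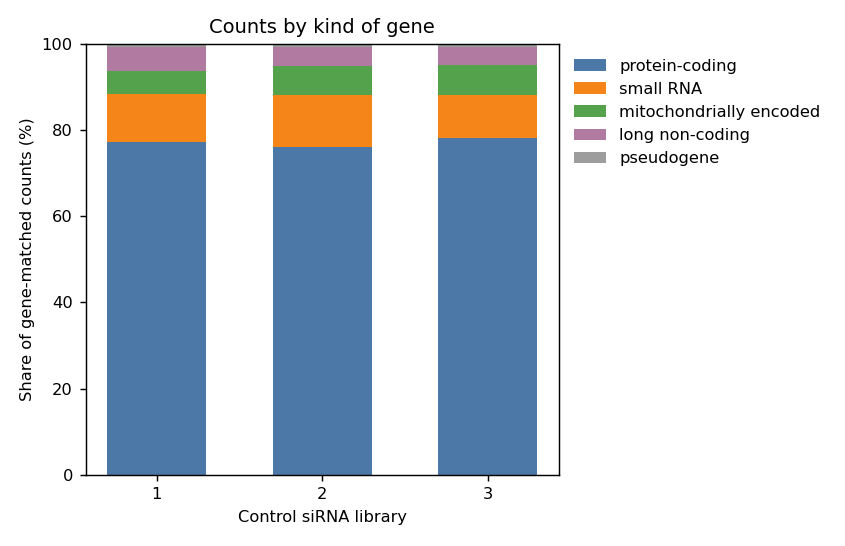
Stacked bars give the share of gene-matched counts (%, axis from 0) by kind of gene in each of the 3 control siRNA libraries. Protein-coding genes make up 77.3%, 76.2%, and 78.2%, and the order of the 3 largest kinds is the same in the 3 libraries.

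Per length, the protein-coding genes at the top were those of lipid transport, chemokines, iron storage, and the cytoskeleton. Apoe, the apolipoprotein that carries cholesterol between brain cells, had the highest level per length in each library, with a mean of 35854 ± 3611, and 12535, 13785, and 15984 CPM in libraries 1 to 3. Ccl3, a chemokine that attracts leukocytes, ranked 2 with a level per length of 26576 ± 7568. Fth1, the heavy chain of the iron store ferritin, ranked 3 with 20669 ± 1802, and Actb, cytoplasmic actin, ranked 4 with 12683 ± 2824. The neighbours Ccl3 and Fth1 changed places between libraries, whose ranks ran from 2 to 3 for Ccl3 and from 2 to 3 for Fth1, so their order does not exceed the spread. Ranks 5 to 10 belonged to Ccl4, Ccl5, Tnf, Lyz2, Mmp13, and H2-D1. Of the 30 protein-coding genes with the highest level per length, 15 stood on the lists of cytokines, chemokines, cytokine brakes, inflammatory enzymes, and interferon-response genes, and 2 (Sdc4, a cell-surface proteoglycan, and Lars2, the mitochondrial leucyl-tRNA synthetase) stood on no list. None of the 30 was a homeostatic microglia gene.

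Of these leading genes, some share sequence with other genes, which limits how their counts could be assigned. Of the 31-base words of the leading transcript, 85.4% for Ftl1, 72.3% for Eef1a1, and 61.8% for Ifit3 occur in transcripts of another gene. This share was 35.1% for Actb, 33.1% for Fabp5, 32.8% for Lyz2, and 27.5% for H2-D1. For Ifit3 the other gene is Ifit3b, which had 536, 519, and 547 CPM. For Lyz2 it is Lyz1, at 2.57, 0.593, and 1.36 CPM.

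The 5 genes used to mark these cells were all well above the floor and differed in how much they varied. Tnf, the cytokine tumor necrosis factor, reached 1864, 4841, and 11210.3 CPM in control libraries 1 to 3, so that library 3 was 6.01 times library 1. The mean of Tnf was 5972 ± 4775 CPM, and it was 3353 CPM without library 3. Il1b, interleukin 1β, reached 1677, 3122, and 2869 CPM, with libraries 2 and 3 close to each other and library 1 lowest. Spp1, the secreted phosphoprotein osteopontin, reached 4504, 1627, and 2667 CPM and was highest in library 1. Itgam, the CD11b chain of complement receptor 3, reached 719, 355, and 278 CPM and was also highest in library 1. Msr1, a scavenger receptor for modified lipoproteins, reached 851, 656, and 538 CPM. Per length, Tnf ranked 7 (from 4 to 25 across libraries), Spp1 15 (8 to 28), Il1b 17 (12 to 20), Msr1 180 (138 to 229), and Itgam 618 (359 to 1015) among protein-coding genes. By CPM, without regard to length, Itgam would rank 287. The order of Tnf, Spp1, and Il1b among themselves did not exceed the spread. Itgam overlaps an annotated gene, Gm49368, that holds 74.0% of its 31-base words and had 7.22, 1.24, and 2.44 CPM. An antisense gene, Il1bos, overlaps Il1b, and the strand setting of the counting is not given in the sources used here.

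Cytokine genes were high but uneven. Of 19 pro-inflammatory cytokines, 14 reached 1 CPM in every library and 4 reached 100 CPM, against 44.4% and 5.87% of all protein-coding genes. Il27, a cytokine of the interleukin 12 family, reached 456, 1012, and 1157 CPM. Il1a, interleukin 1α, had 92.5, 1487, and 1036 CPM, a 16.1-fold range in which library 1 stood apart below the others. Il6 behaved alike in direction, with 144, 657, and 684 CPM, as did Il12b, the p40 subunit shared by interleukins 12 and 23, with 72.1, 461, and 555 CPM. Il23a, the second subunit of interleukin 23, was at 0.269, 17.3, and 20.4 CPM. Csf3, the granulocyte colony-stimulating factor, was at 170.0, 92.8, and 178 CPM and showed no low value in library 1. Ifnb1, interferon β, was low, at 6.88, 9.01, and 16.2 CPM. Ifng and Il17a, which lymphocytes make, had 0 counts in every library, which allows at most 0.115, 0.178, and 0.136 CPM. Of the 16 pro-inflammatory cytokines with a mean of at least 1 CPM, 12 were lowest in library 1 and 11 highest in library 3. Among all genes at that level, library 1 was lowest for 37.3% and library 3 highest for 38.2%. Astrocyte markers (13 of 13) and fibroblast and mural markers (8 of 11) were mostly highest in that library as well, and their part was not tested.

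Genes that hold inflammation back were expressed beside the cytokines. All 16 on this list reached 1 CPM in every library, and 11 reached 100 CPM. Il1rn, the antagonist of the interleukin 1 receptor, reached 2457, 1873, and 1481 CPM, with a level per length of 4289 ± 1169.5 against 5264 ± 1495 for Il1b. Tnfaip3, the deubiquitinase A20 that ends NF-κB signalling, had 1569, 1244, and 1443 CPM, and Nfkbia, the inhibitor IκBα, had 491, 615, and 583 CPM. Neither differed by more than 1.26 times between libraries. Socs3, a suppressor of cytokine receptors, had 1199.7, 601, and 543 CPM. Zfp36, which destabilizes cytokine mRNA, had 1085, 508, and 574 CPM. Bcl3, a nuclear IκB protein, had 206, 64.1, and 67.4 CPM, and Il4ra, the interleukin 4 receptor chain, had 282, 62.4, and 50.4 CPM. These 4 were highest in library 1, the library with the lowest Tnf, Il1a, and Il6. Il10, an anti-inflammatory cytokine, was at 85.3, 49.1, and 55.5 CPM. Of the 16 genes, 10 were highest in library 1, against 37.6% of all genes with a mean of at least 1 CPM. Astrocyte markers (9 of 13) and fibroblast and mural markers (8 of 11) were mostly lowest in library 1, and their part was not tested.

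**Figure D2:**
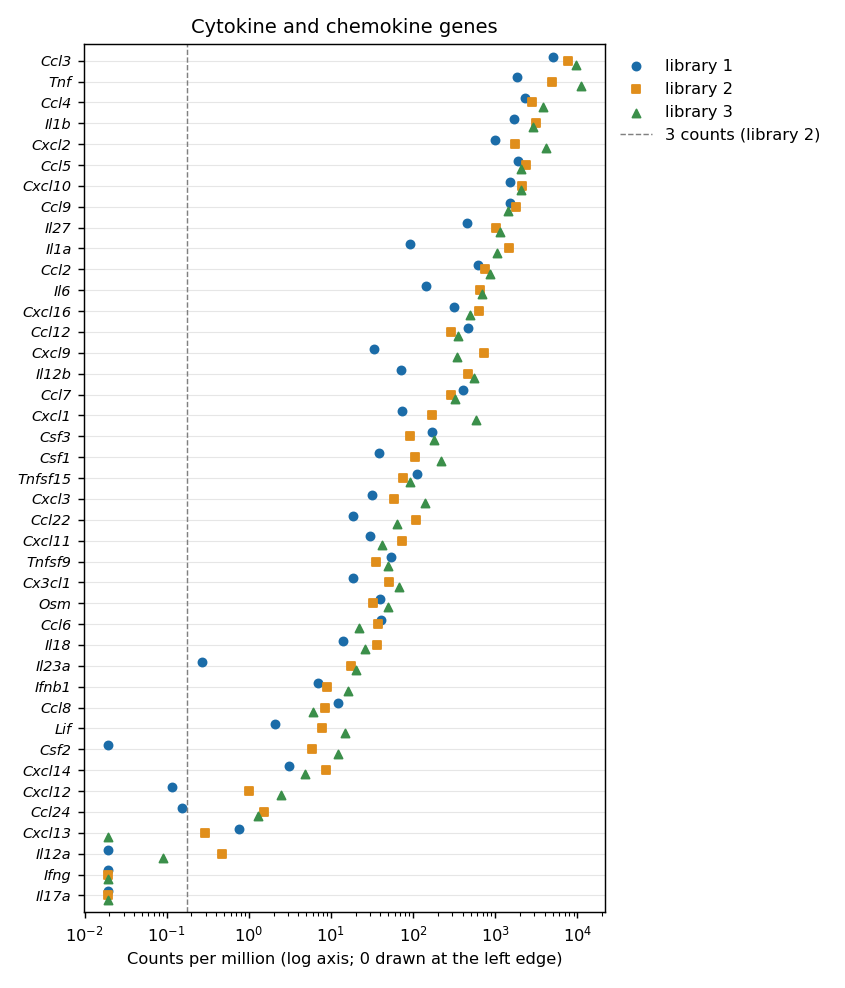
Each row gives 1 cytokine or chemokine gene and each point its CPM (log axis) in control siRNA library 1, 2, or 3; the dashed line marks 3 counts in library 2, and a value of 0 is drawn at the left edge. Tnf and Il1a spread by 6.01 and 16.1 times between libraries, whereas Ccl5 spreads by 1.25 times.

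Chemokines held 5 of the 30 highest levels per length, beside 6 held by disease-associated and 4 by interferon-response genes. Of 22 chemokine genes, 19 reached 1 CPM in every library and 10 reached 100 CPM. Ccl3 reached 5098, 7792, and 9696 CPM, Ccl4 2316, 2792, and 3766 CPM, and Ccl5 1911, 2382, and 2041 CPM. All of them attract leukocytes, and library 1 was lowest for each. Among neutrophil attractants, Cxcl2 had 998, 1729, and 4199 CPM and Cxcl1 73.4, 168, and 587 CPM, and library 3 was highest for both. The interferon-inducible Cxcl10 ranged over 1.39 times, at 1504, 2093, and 2083 CPM, while Cxcl9, another ligand of the same receptor, ranged over 21.5 times, at 33.7, 725, and 345 CPM. Of the monocyte attractants, Ccl2 had 622, 753, and 872 CPM and Ccl7 406, 292, and 321 CPM. At the low end, Cxcl12 was at 0.115, 1.01, and 2.44 CPM, at the floor in library 1, and Cxcl13 was at 0.769, 0.296, and 0 CPM, with 0 counts in library 3.

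Apart from the 5 marker genes, interferon-response genes had the highest median level per length of the protein-coding gene lists. All 20 reached 1 CPM in every library, 18 reached 100 CPM, and their median level per length was 1065, compared with 1028 for housekeeping genes of the cytoskeleton and translation and 19.7 over all protein-coding genes at or above 1 CPM. Rsad2, the antiviral enzyme viperin, reached 7667, 10695, and 9766 CPM, and its neighbour on chromosome 12, Cmpk2, a mitochondrial nucleotide kinase, reached 3434, 4376, and 3526 CPM. Ifit2 had 3714, 5036, and 4282 CPM and Ifit3 2321, 2575, and 2505 CPM. Both encode proteins that bind foreign RNA. Mx1, Usp18, and Ifit1 varied by no more than 1.10 times, with Mx1 at 1301, 1387, and 1343 CPM. The median ratio of the highest to the lowest library was 1.32 on this list, close to the 1.34 of all 6194 genes with a mean of at least 10 CPM and below the 2.56 of the pro-inflammatory cytokines. Among the 30 genes with the most counts were also the interferon-inducible Rnf213, with 8501, 8336, and 8817 CPM, and Parp14, with 1950.3, 2913, and 2964 CPM. Rnf213 overlaps an antisense gene.

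Promoter sequence is shown for 3 of these genes because interferon and NF-κB signalling are known to turn on interferon-response, chemokine, and cytokine genes, of which 11 stood among the 30 highest levels per length. The windows run from 250 bases before to 50 after the annotated start and come from RefSeq on GRCm38.p6. Capitals mark matches, on either strand, to the interferon-stimulated response element (ISRE, searched as GAAA, any 2 bases, and GAAA) or to the NF-κB consensus in Rsad2 and Cxcl10. In Tnf, whose window holds no match to these motifs, they mark TATAAA. Rsad2 lies at chr12:26456403-26456702, Cxcl10 at chr5:92348840-92349139, and Tnf at chr17:35201958-35202257, all on the minus strand.
Rsad2: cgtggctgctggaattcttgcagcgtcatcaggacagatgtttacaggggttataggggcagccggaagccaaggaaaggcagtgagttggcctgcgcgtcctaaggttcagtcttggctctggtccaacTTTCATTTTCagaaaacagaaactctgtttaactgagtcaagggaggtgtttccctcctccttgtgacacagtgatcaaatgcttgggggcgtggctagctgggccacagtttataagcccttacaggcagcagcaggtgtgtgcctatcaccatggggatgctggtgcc
Cxcl10: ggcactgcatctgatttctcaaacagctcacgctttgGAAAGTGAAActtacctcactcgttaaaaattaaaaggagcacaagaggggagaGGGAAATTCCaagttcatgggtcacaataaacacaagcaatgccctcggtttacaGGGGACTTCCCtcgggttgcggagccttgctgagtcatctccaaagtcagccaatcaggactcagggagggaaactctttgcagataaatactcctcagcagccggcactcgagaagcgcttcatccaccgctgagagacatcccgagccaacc
Tnf: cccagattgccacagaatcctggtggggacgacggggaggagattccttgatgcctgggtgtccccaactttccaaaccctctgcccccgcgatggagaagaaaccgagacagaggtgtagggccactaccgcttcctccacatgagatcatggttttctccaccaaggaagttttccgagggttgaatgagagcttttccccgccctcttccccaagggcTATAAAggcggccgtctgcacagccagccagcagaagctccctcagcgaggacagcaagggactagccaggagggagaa
The ISRE letters occurred in 8 of the 14 interferon-response genes with a promoter in the table, in 2 of 15 chemokine genes, in 0 of 14 pro-inflammatory cytokines, and in 3.99% of all 27025 genes. The NF-κB consensus occurred in 6 of 14, 5 of 15, and 4 of 14 genes of the same lists and in 9.55% of all genes. TATAAA occurred in 3 of 14, 7 of 15, and 7 of 14 genes of these lists and in 15.7% of all genes. In the macrophage lineage core, 3 of 19 genes held the ISRE letters, 1 of 19 the NF-κB consensus, and 3 of 19 TATAAA. In the homeostatic list, these were 0 of 15, 1 of 15, and 3 of 15. These are letter matches in short windows, and binding was not measured.

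Inflammatory enzymes were high, with 17 of 19 at or above 1 CPM and 12 at or above 100 CPM in every library. Mmp13, a collagenase, reached 6125, 7991, and 8869.9 CPM and Ptgs2, the cyclooxygenase that makes prostaglandins, 3741, 4493, and 4543 CPM. Acod1, the enzyme that makes itaconate from aconitate, had 3533, 4389.9, and 3935 CPM, and Nos2, the inducible nitric oxide synthase, 812, 806, and 1078 CPM. Cybb, the catalytic subunit of the phagocyte NADPH oxidase, had 2187, 2682, and 2817 CPM, and Sod2, the mitochondrial superoxide dismutase, 793, 837, and 884 CPM. Each of these 6 stayed within 1.45 times between libraries. Saa3, an acute-phase apolipoprotein, was instead highest in library 1, at 412, 59.0, and 90.2 CPM, and so was Lcn2, which binds bacterial siderophores, at 70.4, 20.9, and 30.6 CPM. Mmp12, a macrophage elastase, was lowest there, at 87.2, 341, and 376 CPM. Ptgs1, the constitutive cyclooxygenase, was low, at 1.15, 0.356, and 0.452 CPM.

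The receptors and adaptors that sense LPS were all detected. All 21 genes of the LPS and NF-κB list reached 1 CPM in every library, with a median level per length of 60.9. Cd14, the co-receptor that hands LPS on, had 1219, 1121, and 1029.7 CPM, the signalling receptor Tlr4 58.8, 35.7, and 39.6 CPM, and its partner Ly96 4.88, 7.17, and 3.75 CPM. Per length, the level of Cd14 was 1886 ± 204, that of Tlr4 35.5 ± 13.2, and that of Ly96 22.7 ± 7.77, so Cd14 exceeded both in every library. The adaptor Myd88 had 253, 249, and 232 CPM, and Ticam1, the adaptor of the interferon branch, 26.1, 40.7, and 30.6 CPM. Of the NF-κB subunits, Nfkb1 had 659, 809.8, and 870.1 CPM and Rela 176, 150.0, and 175 CPM.

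Genes that mark macrophages in general were high, as the label of microglia requires. All 25 genes of the macrophage lineage core reached 1 CPM in every library, 19 of them 100 CPM, with a median level per length of 493. Lyz2, lysozyme M, reached 5559.9, 2308, and 3421 CPM and Ctss, cathepsin S, 1716, 1294, and 1348 CPM. Csf1r, the receptor that microglia need to survive, had 583, 461, and 469.6 CPM, and Ptprc, the leukocyte phosphatase CD45, 687, 674, and 642 CPM. Laptm5, a lysosomal protein of leukocytes, differed by 1.01 times between libraries, one of the 15 smallest ranges among genes of at least 10 CPM, at 524, 525, and 519 CPM. Tyrobp, the signalling partner of Trem2, had 113, 169, and 125 CPM, and Trem2 63.0, 136, and 115 CPM. Aif1, which encodes the common microglial marker Iba1, had 77.2, 68.8, and 47.1 CPM.

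All 16 lineage transcription factors reached 1 CPM in every library, over a wide range of levels. Spi1, which encodes PU.1, had 375, 378, and 315 CPM, Irf8 423, 705, and 491 CPM, and Ikzf1 399, 495, and 514 CPM. All of these govern myeloid development. Maf, which is used by macrophages, had 934, 807, and 763 CPM. Sall1, a regulator of microglial identity, was detected but low, at 13.5, 32.8, and 31.2 CPM, with library 1 lowest. Mef2c had 14.1, 18.4, and 17.8 CPM, while Klf2 was at 2.50, 1.07, and 1.04 CPM, close to 1 CPM.

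Homeostatic microglia genes covered a wide range of levels. Of 25, 16 reached 1 CPM in every library, 3 reached 100 CPM, and 3 were under 3 counts in every library, and the median level per length was 7.75. Of all protein-coding genes, 44.4% reached 1 CPM and 5.87% reached 100 CPM. P2ry12, the ADP receptor that guides microglial processes, was at 1.69, 2.02, and 0.723 CPM, and the related P2ry13 at 2.15, 1.96, and 0.678 CPM. Tmem119, a standard marker of brain microglia, had 1, 0, and 2 counts and Siglech, a sialic acid-binding lectin, 14, 1, and 4 counts, against floors of 3 counts. Gpr34, a lysophosphatidylserine receptor, was at 0.730, 1.90, and 2.35 CPM, and Slc2a5, a fructose transporter, had 3, 0, and 0 counts. Crybb1 and Upk1b had 0 counts in every library. Cx3cr1, the receptor for neuronal fractalkine, was at 10.9, 12.9, and 8.09 CPM. Its level per length, 8.22 ± 1.98, was above the 1.85 ± 0.898 of P2ry12 in every library, and it ranked 6870 per length among protein-coding genes. At the other end, Cst3, cystatin C, had 432, 418, and 397 CPM, and Fcrls, an Fc receptor-like protein, 184, 152, and 181 CPM. Both were above 100 CPM in every library. Sparc, a matrix protein on this list that astrocytes and fibroblasts also make, ranged over 29.9 times, at 3.31, 28.5, and 98.8 CPM. Among the markers that define brain microglia, both kinds were present, with Tmem119 and Crybb1 under 3 counts in every library and Fcrls and Sall1 above it. In bulk RNA, a lower share of cells with a gene and less of its RNA per cell cannot be told apart.

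**Figure D3:**
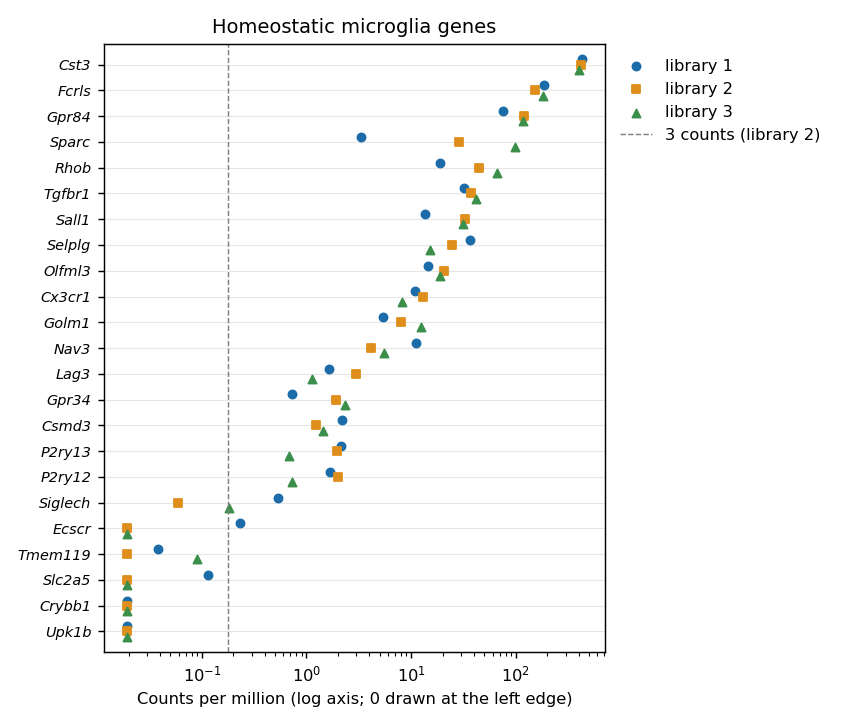
Each row gives 1 of the homeostatic microglia genes reported here and each point its CPM (log axis) in control siRNA library 1, 2, or 3; the dashed line marks 3 counts in library 2, and a value of 0 is drawn at the left edge. Cst3 and Fcrls lie above 100 CPM in the 3 libraries, while P2ry12, P2ry13, and Gpr34 lie near 1 CPM and Tmem119 lies under the floor.

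Genes of the disease-associated state, which microglia take on around plaques and degenerating cells, were much higher. All 24 reached 1 CPM in every library, with a median level per length of 696, beside 7.75 for the homeostatic list. The median was 493 for the macrophage lineage core and 687 for lysosomal genes. Lyz2, Tyrobp, and Trem2 stand on both the disease-associated list and the macrophage core. Next to Apoe and Spp1, Ctsb, cathepsin B, had 4809, 5267, and 4913 CPM, and Fabp5, a fatty acid-binding protein, 934, 1117, and 1375 CPM. Lpl, lipoprotein lipase, had 1239, 1513, and 1005 CPM, and Gpnmb, a glycoprotein of lysosome-rich cells, 472, 895, and 874 CPM. Not all members were this high. Itgax, the CD11c chain, had 2.92, 13.3, and 10.7 CPM, Cst7, cystatin F, 46.2, 48.8, and 45.2 CPM, and Clec7a, the β-glucan receptor dectin 1, 75.4, 125, and 119 CPM. Clec7a is annotated as a polymorphic pseudogene in the release used.

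Markers of border macrophages and monocytes covered a wide range, with a median level per length of 0.171 against 1.15 over all protein-coding genes. Of 18, 7 had 0 counts in every library (Lyve1, Cd209f, Plac8, S100a9, Chil3, Arg1, and Retnla), as had 28009 of all 54119 genes of any kind. In every library 6 of the 18 reached 1 CPM, against 44.4% of all protein-coding genes. Ms4a7, which border macrophages express, was high, at 332, 313, and 335 CPM, and Stab1, a scavenger receptor, had 509, 347, and 360.0 CPM. Mrc1, the mannose receptor CD206, was at 72.2, 66.5, and 88.6 CPM. The scavenger receptor Cd163 was at 0.192, 0.119, and 0.136 CPM, close to the floor, and Ccr2, the receptor of inflammatory monocytes, was at 8.65, 4.21, and 4.84 CPM. The summed level of the list was 953, 751, and 801 CPM.

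Of 16 complement genes, 15 reached 1 CPM in every library and 7 reached 100 CPM. The C1q chains start the classical pathway, and microglia are their main source in the brain. C1qa had 362, 315, and 266 CPM, C1qb 649.6, 718, and 645 CPM, and C1qc 659.9, 624, and 525 CPM. C3, the central component, reached 1089.5, 2129.5, and 2003 CPM, and its receptor C3ar1 1589.8, 1365, and 1208 CPM. Cfb, factor B of the alternative pathway, was highest in library 1, at 131, 21.4, and 18.2 CPM, and shares 81.5% of its 31-base words with the overlapping Gm20547. C4b was low, at 12.6, 1.19, and 3.12 CPM, and shares 48.8% of its 31-base words with C4a.

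All 20 phagocytosis and scavenger receptor genes reached 1 CPM in every library, and 7 reached 100 CPM. Among receptors for dying cells, Axl, a receptor tyrosine kinase, had 719, 545, and 661 CPM and Mertk, its relative, 98.0, 157, and 153 CPM. Gas6, which bridges both to phosphatidylserine, had 163, 105, and 123 CPM, and Tyro3, the third family member, was at 1.61, 2.79, and 1.94 CPM. Per length, the levels were 665 ± 88.1 for Axl, 86.7 ± 19.9 for Mertk, and 3.00 ± 1.56 for Tyro3, an order kept in every library. The scavenger receptor Cd36 had 231, 339.5, and 265 CPM, and Lrp1, a large endocytic receptor, had 574, 760.0, and 702 CPM.

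In antigen presentation, class I genes stood far above class II genes per length, with a level of 2088 ± 282 for H2-K1 and 4.07 ± 1.67 for H2-Ab1. H2-D1 reached 2251, 1952, and 1861 CPM, H2-K1 1249, 1013, and 1002 CPM, and B2m, the shared light chain, 1906, 1709, and 1715 CPM. The class II chain H2-Aa was at 2.73, 0.652, and 0.633 CPM, H2-Ab1 at 2.19, 0.948, and 1.85 CPM, and H2-Eb1 at 2.84, 0.356, and 0.497 CPM. Ciita, the class II transactivator, was at 0.154, 0.415, and 0.0904 CPM. H2-Aa, H2-Ab1, and H2-Eb1 stayed under 3 CPM in every library. Cd74, the invariant chain, was detected, at 104, 61.2, and 80.4 CPM. The costimulatory receptor Cd40 had 185, 651, and 415 CPM, lowest in library 1, and Cd86 was steady at 140.0, 143, and 121 CPM.

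Lysosomal genes were high as a block, with 20 of 22 at or above 100 CPM in every library and a median ratio of highest to lowest library of 1.18. Ctsd, cathepsin D, had 1416, 1764, and 1528 CPM, Psap, prosaposin, 1386, 1395, and 1304 CPM, and Lamp1 712, 754, and 780.1 CPM. Grn, progranulin, had 1285, 874, and 737 CPM and was highest in library 1. Ctsk, cathepsin K, was low, at 1.15, 0.356, and 0.814 CPM.

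In energy metabolism, 14 of 21 glycolytic genes reached 100 CPM in every library. These genes had a median level per length of 193 and genes of the tricarboxylic acid cycle, with Acod1 on the list, of 37.2. Pkm, pyruvate kinase, had 1301, 807, and 919 CPM and Aldoa, aldolase A, 539, 549, and 566 CPM. Pfkfb3, whose product raises glycolytic flux, had 1352, 386, and 385 CPM, so library 1 was 3.51 times the lowest. Of the hexokinases, which start glycolysis, Hk3 had 397, 491, and 412 CPM and Hk2 326, 279, and 288 CPM. The glucose transporter Slc2a1 had 234, 179, and 178 CPM, while Slc2a3 was at 1.96, 1.72, and 1.27 CPM. Of the cycle enzymes, Sdha, a subunit of succinate dehydrogenase, had 73.9, 66.2, and 75.3 CPM, and Idh2, an isocitrate dehydrogenase, 8.80, 10.3, and 11.7 CPM. Acod1 was the only one of the 20 listed genes above 100 CPM in every library.

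**Figure D4:**
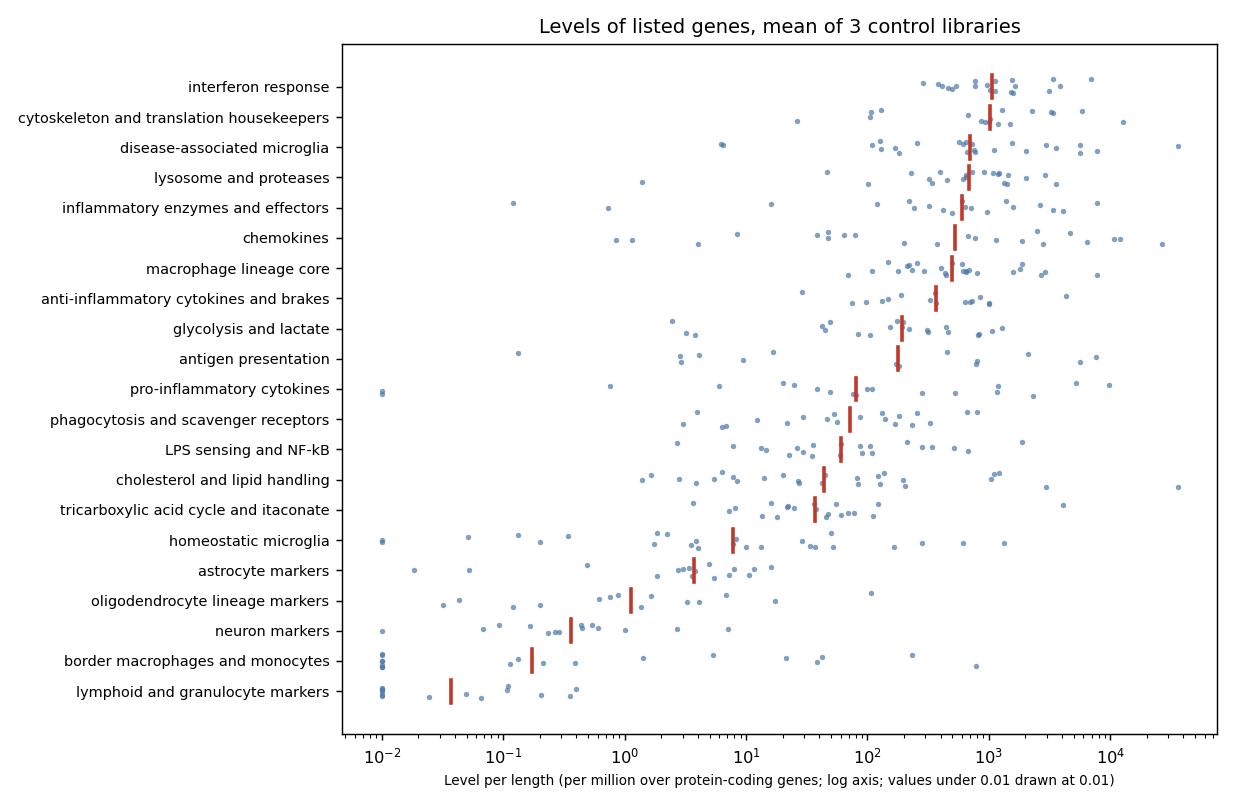
Each point is the level per length of 1 listed gene (mean of 3 control siRNA libraries, on a scale that totals 1000000 over nuclear protein-coding genes, log axis, values under 0.01 drawn at 0.01), with lists in rows and the red bar at each list's median. Among the 21 lists drawn, which leave out the 5 marker genes, the medians run from 1065 for the interferon-response genes to 7.75 for homeostatic microglia genes and 0.0368 for lymphoid and granulocyte markers.

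Of 26 genes of cholesterol and lipid handling, 23 reached 1 CPM and 7 reached 100 CPM in every library, and genes of synthesis were among the low ones. Besides Apoe and Lpl, Plin2, the coat protein of lipid droplets, had 529.5, 621, and 498 CPM, and Ch25h, which makes 25-hydroxycholesterol, 667, 532, and 653 CPM. Abca1, the cholesterol exporter, had 552, 165, and 169 CPM and was highest in library 1. Sqle, an enzyme of cholesterol synthesis, was at 0.845, 1.66, and 2.71 CPM. Fasn, fatty acid synthase, was at 5.92, 10.1, and 20.6 CPM, and the desaturase Scd1 at 0.4996, 1.54, and 3.21 CPM. All 3 were lowest in library 1.

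Of 21 iron and redox genes, 12 reached 100 CPM in every library, led by the ferritin chains, with Ftl1 at 1933, 2289, and 2391 CPM. Prdx1, a peroxiredoxin, had 1186, 1457, and 1733 CPM, Hmox1, heme oxygenase 1, 562, 510.0, and 665 CPM, and Sqstm1, the autophagy receptor p62, 1822, 1749.8, and 2585 CPM. Slc7a11, the cystine importer, was highest in library 3, at 186, 243, and 539 CPM. Nqo1, another gene of the antioxidant response, was at 0.730, 0.652, and 0.904 CPM. Of 20 listed genes with a mean of at least 1 CPM, 14 were highest in library 3, against 38.2% of all genes. Astrocyte markers (13 of 13) and fibroblast and mural markers (8 of 11) were mostly highest in library 3 too, and their part in this count was not tested. Of 18 genes of amino acid metabolism, 14 reached 1 CPM in every library. Beside Nos2, the arginases, which also consume arginine, were low or at 0, since Arg1 had 0 counts and Arg2 was at 24.3, 5.93, and 15.8 CPM. Ass1, which rebuilds arginine, was highest in library 1, at 54.6, 11.3, and 18.0 CPM. The tryptophan enzyme Ido1 had 0, 5, and 0 counts.

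Of 20 growth factors, 13 reached 1 CPM and 4 reached 100 CPM in every library. Igf1, the insulin-like growth factor, had 346, 472, and 426 CPM, and Tgfb1, which maintains microglial identity, 333, 229.8, and 227 CPM. Csf1, the ligand of Csf1r, ranged over 5.74 times, at 38.05, 107, and 218 CPM, whereas Il34, the other ligand, was under or near the floor, with 0, 2, and 6 counts. Bdnf, the brain-derived neurotrophic factor, was at 0.576, 0.771, and 2.40 CPM, and Vegfa at 1.77, 2.61, and 2.62 CPM. Igf1 overlaps an antisense gene, Igf1os. The genes that the study's other siRNAs target were expressed, with 120.2, 93.8, and 98.6 CPM for the chromatin remodeller Chd8 and 41.5, 38.4, and 41.0 CPM for Tsc2, a brake on mTOR signalling.

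Of 16 cell division genes, 8 reached 1 CPM and 2 reached 100 CPM in every library, against 44.4% and 5.87% of all protein-coding genes. Their median level per length was 3.13. Mki67 had 35.1, 44.9, and 88.9 CPM, Top2a 3.65, 7.47, and 13.02 CPM, and Ccnb1, cyclin B1, 0.307, 1.66, and 1.72 CPM. The 2 genes above 100 CPM were Pcna, the sliding clamp of DNA replication, with 143, 158, and 161 CPM, and Cdkn1a, which encodes the cell cycle inhibitor p21, with 341, 539, and 614 CPM. Of the 12 listed genes with a mean of at least 1 CPM, 10, Cdkn1a among them, were highest in library 3, against 38.2% of all genes. Astrocyte markers, with 13 of 13, and fibroblast and mural markers, with 8 of 11, were mostly highest in the same library, and their part in this count was not tested.

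Genes annotated as long non-coding took 5.43%, 4.40%, and 4.12% of counts, most of it in 3 genes. Gm26917, at chr17:39843013-39846341, had 25252, 19726, and 18997 CPM, and Gm42418, beside it at chr17:39846958-39848788, 7097, 7368, and 3965 CPM. RefSeq lists Gm42418 as a synonym of Rn18s-rs5, a gene related to 18S ribosomal RNA, and 2 annotated genes overlap it on the opposite strand. Whether the counts of Gm26917 also come from ribosomal RNA was not tested. Malat1, a nuclear RNA, had 8603, 4975, and 5256 CPM, and Neat1, the scaffold of paraspeckles, 428, 317, and 238 CPM. Library 1 was highest for both Malat1 and Neat1. Mir155hg, the host gene of the inflammatory miR-155, had 55.6, 72.3, and 76.2 CPM, and Lncpint 75.02, 82.3, and 82.3 CPM. The imprinted Meg3 was low, at 1.69, 2.85, and 2.94 CPM, and H19 had 0, 0, and 6 counts. In all, 985 of 12974 long non-coding genes reached 1 CPM in every library.

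Xist, which silences an X chromosome in female cells, and genes of the Y chromosome were present together in every library. Xist had 516, 193, and 196 CPM. Of the Y-linked genes, which were named after their values were seen, Ddx3y had 7.22, 22.3, and 33.4 CPM and Eif2s3y 4.23, 12.03, and 13.2 CPM. Kdm5d had 3.54, 8.77, and 11.6 CPM, and Uty had 4.77, 12.4, and 16.8 CPM. Library 1 was highest for Xist and lowest for all 4 Y-linked genes. Tsix, the antisense RNA of the same locus, overlaps Xist. The methods describe each replicate as the culture of a distinct brain, and how both kinds of RNA came to be in each library was not tested.

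Among structural RNAs, Rn7s1, the RNA of the signal recognition particle, had 13057, 15900.4, and 11958 CPM, and Rn7sk, which restrains transcription elongation, 3509, 4558, and 3929.7 CPM. Rpph1, the RNA of ribonuclease P, had 4313, 4754, and 2693 CPM, and Rmrp, the RNA of ribonuclease MRP, 457, 502, and 385 CPM. All 4 were highest in library 2. Rmrp is annotated as long non-coding in the release used. Of its 31-base words, 96.0% occur in another entry of the same name, and the values are those of the entry with more counts. Rn7s1 shares all of its 31-base words with other genes, Rn7sk 72.8%, and Rpph1 70.2% with Ccnb1ip1, which it overlaps. Rny1, a Y RNA, had 1, 0, and 1 counts, Rnu11, of the minor spliceosome, had 0, 1, and 0 counts, and Terc, the telomerase RNA, had 0 counts. Cytoplasmic ribosomal protein genes, 85 in number, took 1.13% of counts with a median level per length of 425.

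Markers of other brain cells were low but differed between libraries. The summed level of 16 astrocyte markers was 29.2, 47.9, and 183 CPM in libraries 1 to 3, and 13 of the 13 with a mean of at least 1 CPM were highest in library 3. Aqp4, the water channel of astrocyte endfeet, had 0, 5.87, and 48.9 CPM, Gfap, the astrocyte filament, 2.84, 2.61, and 16.1 CPM, and Slc1a3, a glutamate transporter, 1.61, 3.20, and 15.5 CPM. S100b, Ntsr2, and Gjb6 stayed at or under 1 CPM. The 14 fibroblast and mural markers summed to 83.0, 215, and 609.5 CPM, with Fn1, fibronectin, at 21.8, 101, and 311 CPM and Acta2, smooth muscle actin, at 0.769, 9.31, and 77.0 CPM. Dcn, Lum, and Vtn were near the floor.

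Neuron markers summed to no more than 24.1 CPM, and 1 of 14 reached 1 CPM in every library. Oligodendrocyte lineage markers summed to 119, 144, and 112 CPM, and 4 of 14 reached 1 CPM in every library. Cnp, at 87.8, 110.4, and 76.0 CPM, held most of these counts, and Mbp also had a mean of at least 10 CPM. Of the genes that define oligodendrocyte precursors, Pdgfra had 5, 2, and 0 counts and Olig2 0, 2, and 5 counts. Endothelial markers summed to 188, 185, and 249 CPM, and 4 of 10 reached 1 CPM in every library, against 44.4% of all protein-coding genes. Flt1, with 139, 135, and 196 CPM, held most of these counts, and Kdr also had a mean of at least 10 CPM. Cldn5 had 1, 0, and 0 counts and Tek 0. No lymphoid or granulocyte marker reached 1 CPM in every library.

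**Figure D5:**
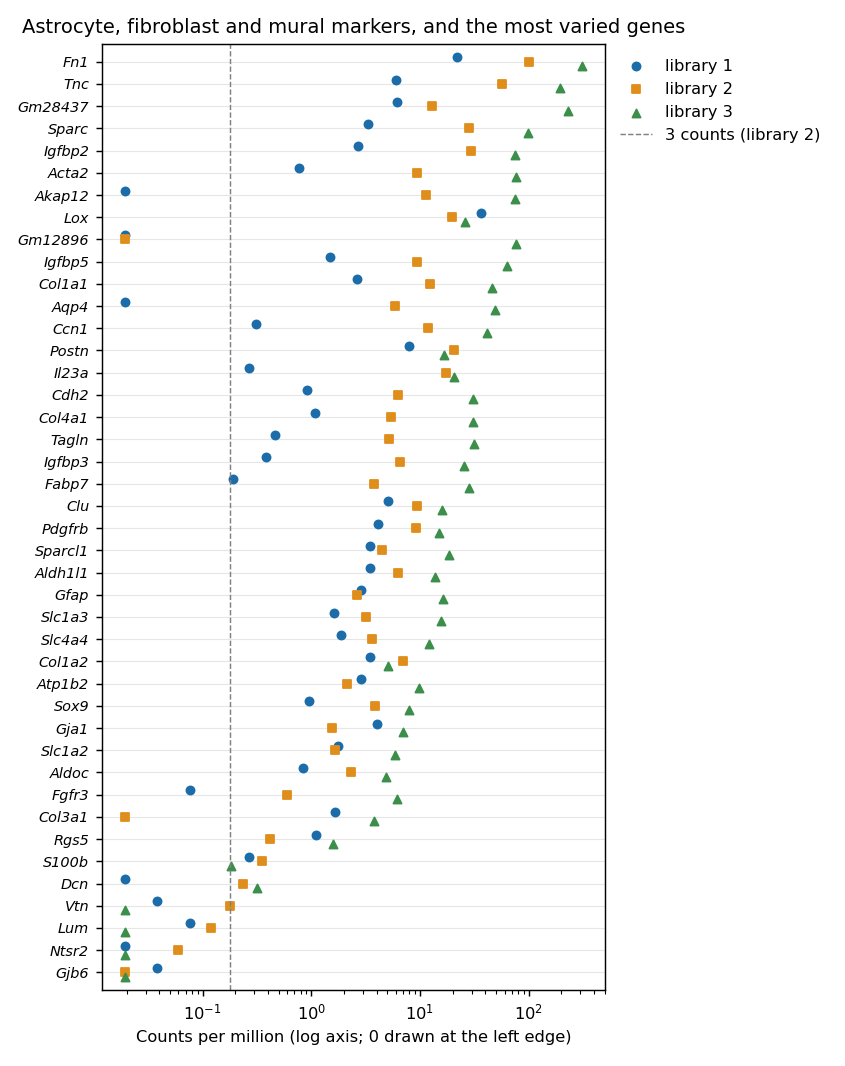
Each row gives 1 astrocyte marker, fibroblast or mural marker, or gene among the 15 with the widest range, and each point its CPM (log axis) in control siRNA library 1, 2, or 3; the dashed line marks 3 counts in library 2, and a value of 0 is drawn at the left edge. Aqp4, Acta2, and Fn1 are highest in library 3 and lowest in library 1.

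The 15 genes with the widest range were all highest in library 3, and Aqp4, Acta2, Tagln, Sparc, and Cdh2 were among them. Across 6194 genes with a mean of at least 10 CPM, the median ratio of highest to lowest library was 1.34, and 687 genes (11.1%) exceeded 2. Library 1 was more than 2-fold above both others for 143 genes and below both for 163, library 2 for 9 and 25, and library 3 for 69 and 13. Pearson's r of log2 CPM across these genes was 0.943 between libraries 1 and 2, 0.932 between 1 and 3, and 0.976 between 2 and 3, as a description, since genes are not independent replicates. Of the 15 genes with the widest range, Tnc, a matrix protein, had 6.00, 57.4, and 195 CPM, Igfbp5, an insulin-like growth factor-binding protein, 1.499, 9.31, and 63.5 CPM, and Fabp7, a fatty acid-binding protein of radial glia, 0.192, 3.79, and 28.4 CPM. Il23a was the only listed cytokine among the 15. Tnf, Cxcl1, and Cxcl2 were highest in library 3 as well, and the part of the other cells in that pattern was not tested. The 15 genes with the narrowest range included Chmp3, a membrane-scission protein, at 57.1, 57.2, and 57.4 CPM, Brd2, a chromatin reader, at 585, 591, and 594 CPM, and the autophagy gene Atg16l1 at 92.8, 93.0, and 92.4 CPM.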

How the data were processed

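Estimated transcript counts of all 9 samples were deposited in 1 table, and the authors' processing notes and methods name Salmon 0.14.1 on mm10. The annotation release is not given in the sources used here. The authors made these estimated counts from the reads with Salmon and passed them on unrounded, not as whole numbers. They were rounded and summed to genes with GENCODE mouse release 21 (GRCm38), which matched 139852 of 140948 transcripts. No other column of per-sample values was left unused in the control group, and the 6 knockdown samples were not used.

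CPM was computed over gene-matched counts, and level per length as the sum of count over annotated transcript length, scaled to a total of 1000000 over protein-coding genes of the nuclear genome. That scope was chosen after seeing the data, because Gm24245 took 72.1 to 74.2% of the scale over all genes. Samples were grouped by their labelled treatment. The design has 1 group, so no test was run, and the annotated lengths and shared sequence can shift levels between genes. Precision follows the depth, with a floor of 3 counts.

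Named genes were members of 33 lists (536 symbols, of which 533 were found), the 30 genes highest by CPM and by level per length, the 15 highest long non-coding and 10 highest small RNA genes, and the 15 most and least variable genes with a mean of at least 10 CPM. Members and lists were chosen with earlier results of these data known, and further genes were added after their values were seen. Sequence sharing was the percent of 31-base words of the leading transcript found in other genes. Promoters came from RefSeq (GRCm38.p6). Some listed genes and sequences are not reported here, though list counts include the genes. Alternatives were scaling by edgeR 4.0.16 (TMM) and DESeq2 1.42.0 (size factors) in R 4.3.3, unrounded counts, other denominators and filters, coding transcripts only, and each library left out. Scripts used Python 3.11.15 and were tested on simulated data.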

Additional observations from a re-analysis of the deposited data

Results flagged for a closer look

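Transcripts that no gene of the annotation used here holds carried 0.273% ± 0.0146 (SD, n = 3) of all estimated counts, with 0.285%, 0.257%, and 0.277% in control libraries 1 to 3. They were singled out because they lie outside the gene-level values and their sum exceeds 3 counts in each library. Of these 1096 transcripts, 162 had at least 3 counts and 6 reached 100 CPM in every library, and the highest had a mean of 339 CPM.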

How the results depend on the processing

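Alternatives were TMM scaling, DESeq2 size factors, unrounded counts, the total of all transcripts as denominator, and a filter of at least 10 counts. Under these, the levels of the 12 genes compared stayed within the spread between libraries. The 5 shares of counts did so under unrounded counts and the filter, while the scalings and that denominator cannot change a share. With 1 of 3 libraries left out, a mean cannot move past the SD, so that setting cannot test levels or shares. The number of genes at or above 1 CPM stayed within 1.5 times in all these settings. With transcripts annotated as coding only, the top 10 genes held 10.6% and the top 100 held 31.7% of counts, and over nuclear protein-coding genes alone 10.3% and 30.3%, because Gm24245 and the mitochondrial ribosomal RNAs then leave the total. Of 11 gene levels, 5 stayed within the spread in the former setting and 6 in the latter. Shares by kind of gene have no value under those settings. Leaving out 1 library moved 1 level by over 1.5 times, that of Tnf, which was 3353 CPM without library 3. Ranks by CPM in place of level per length moved beyond the spread for 5 genes, from 618 to 287 for Itgam, 2 to 6 for Ccl3, 11 to 2 for Rsad2, 20 to 12 for Acod1, and 6870 to 5797 for Cx3cr1. No paired analysis was possible because 1 group was described and no test was run. The depth limits statements on genes under 3 counts.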

Other observations

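Of the genes named in the report, Pfkfb3 of glycolysis, the acute-phase gene Saa3, and the receptor Il4ra were all highest in library 1, by 3.51, 6.99, and 5.59 times the lowest library. Dst, a large linker of the cytoskeleton that was among the 30 genes with the most counts, had 3653, 3237, and 3319 CPM. Lars2, the mitochondrial leucyl-tRNA synthetase, had 1543, 2151, and 1455 CPM and ranked 23 to 41 per length among protein-coding genes across the libraries. Its level per length was instead highest in library 1, at 3490, 3149, and 2328. The cause of this difference was not tested.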
